A study of Homo sapiens with 16 samples.

Results

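Reverse-transcription stops in histone mRNAs were examined at 2093 of the 719918 positions listed in the tables. The members were all listed positions of protein-coding genes whose symbol begins with HIST1H, HIST2H, HIST3H or HIST4H, called here the replication-dependent histone genes, together with those of the variant histone genes H2AFZ, H2AFX, H3F3A and H3F3B. Of these positions, 1004 lay in 45 replication-dependent genes and 1089 in the 4 variant genes. The method, edu-Ψ-seq, treats RNA with the carbodiimide CMC, which stays bound to pseudouridine and halts reverse transcriptase beside it, so that a modified base is read as a stop.

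The 16 libraries formed 8 groups of 2 replicates, all from poly(A)-selected and fragmented RNA. HEK293T, an embryonic kidney line, was represented by CMC- libraries, CMC+ libraries, and CMC+ libraries that had also received Terminator, which degrades RNA from a 5′ end carrying a monophosphate. HCT116, a colorectal carcinoma line, had the same 3 groups. HCT116-shDKC1, an HCT116 derivative with the genotype label KD DKC1 (the gene codes for dyskerin, which makes pseudouridine within box H/ACA ribonucleoproteins), had CMC- and CMC+ Terminator groups. All libraries carried the treatment labels RA3+ and DA3+; the Terminator libraries carried AP5+ as well, with RE+ in HEK293T and XhoI in HCT116 and HCT116-shDKC1. The Terminator libraries therefore differed from the CMC- libraries in CMC and in these further steps, and the contributions cannot be told apart. The labels do not say whether replicates came from separate cultures, so the p-values measure the spread between these libraries, which may be technical.

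Replication-dependent histone mRNAs supply histones to newly replicated DNA and are made mainly in S phase. They lack introns and, as a rule, a poly(A) tail: they end just after a conserved stem-loop that is bound by SLBP, the stem-loop binding protein. Variant histones are deposited outside replication as well, and their mRNAs are polyadenylated. H2AFZ encodes H2A.Z, a variant found near promoters, H3F3A and H3F3B encode the same H3.3 protein, and H2AFX encodes H2A.X, which is phosphorylated at DNA breaks and whose mRNA can end either at a stem-loop or at a poly(A) tail. The oligo d(T) beads used here retain RNA with a poly(A) tail.

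The sequences on which the results turn are the 3′-terminal stem-loops and the bases around the called stops. The loops are printed with the stem in capitals and the 4-base loop in lower case, each read from GENCODE 29 transcripts (hg38).
HIST2H2AA3 and 13 other genes: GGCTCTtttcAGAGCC
HIST1H2BC and 3 other genes: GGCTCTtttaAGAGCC
HIST2H4A, HIST2H4B and HIST1H4I: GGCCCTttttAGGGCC
HIST1H4B, HIST1H4E and HIST1H4H: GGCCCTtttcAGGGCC
H2AFX: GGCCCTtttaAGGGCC
HIST1H2AG: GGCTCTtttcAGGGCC
H2AFX was the only variant gene in which the histone stem-loop motif, which spans 16 bases, was found on the sense strand.

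Stop sites called in a comparison, with further H4, H2B and variant sites described below, are shown in windows of up to 21 bases, 5′ to 3′ on the strand of the gene, with the listed base in capitals. Each window follows the transcript that the tables name, which for H3F3B positions 75779049, 75779048 and 75778962 is a noncoding transcript that keeps the intron, while the coding transcripts place these bases in the coding sequence.
HIST1H4C, chromosome 6 position 26103930, 5′ UTR: gttcatacctTccactgcgat
HIST1H4E, chromosome 6 position 26204610, 5′ UTR: cttgtttttcAgatttttgcg
HIST2H4B, chromosome 1 position 149861161, 5′ UTR: gctcgccttgAcagaagctgt
HIST1H4C, chromosome 6 position 26104228, coding: ctaaaacgtcAggggcgcact
HIST2H4A and HIST2H4B, chromosome 1 positions 149832965 and 149860851, coding: ctcaagcgccAggggcgcacc
HIST2H2AA3 and HIST2H2AA4, chromosome 1 positions 149842258 and 149851554, 3′ UTR: cgtctcgaagGggcacctgtg
7 H2B genes, coding base 257: cattacaacaAgcgctcgacc
H2AFX, chromosome 11 position 119094848, 3′ UTR: gcggggcaagCgggccgcggc
H2AFX, chromosome 11 position 119094035, 3′ UTR: tcggcaatccAagcacctaga
H2AFZ, chromosome 4 position 99950169, coding: gaattcgaaaTggctggcggt
H2AFZ, chromosome 4 position 99949348, coding: taaaatctagGacgaccagtc
H3F3A, chromosome 1 position 226064395, coding: accggtggtaAagcacccagg
H3F3B, chromosome 17 position 75779049, coding, window running into the intron: ctcatcgctaCaggtaggtcg
H3F3B, chromosome 17 position 75779048, coding, window running into the intron: tcatcgctacAggtaggtcgg
H3F3B, chromosome 17 position 75779047, coding, last base of its exon: catcgctacaGgcccgggacc
H3F3B, chromosome 17 position 75778962, coding, window beginning in the intron: tcgctgcaggCccgggaccgt
Of these 16 windows, 2 have a listed base of T (U in the RNA), the HIST1H4C 5′ UTR site and the H2AFZ start-codon site. Among all members, U made up 27.8% of the replication-dependent and 28.6% of the variant positions, beside 31.7% of all listed positions. Of all positions called higher than CMC- in HEK293T, U made up 66 of 69 with CMC alone and 1794 of 4957 with Terminator. In HCT116 with Terminator it made up 1930 of 6787. None of the histone positions tested with Terminator in HCT116 and HCT116-shDKC1 was a U.

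Each of the 10 tables sets a treated library beside a CMC- library and gives, for each position, the reads that stop there and a readthrough number. The readthrough number was used as deposited, with no stop reads added, and is called covering reads here. The stop percent is the stop reads as a percent of the covering reads. No listed position had fewer than 5 stop reads in the treated library or fewer than 1 in the control, and none had a stop ratio below that of its control. A higher treated stop percent is therefore fixed by the listing and is given as a description only. The listing also largely fixes the direction of tests of treated against CMC- libraries on stop reads per covering read, called against coverage below. A call there is no separate evidence of a rise. Library totals ran from 8650000 to 31300000 reads, lowest in the HCT116 CMC+ libraries. Of 8 marker genes taken for the epithelial HCT116 line, EPCAM, KRT8, KRT18 and KRT19 had listed positions in every HCT116 and HCT116-shDKC1 table, while the HEK293T tables listed at most 1 position of these genes (KRT18). CDX2, also on that list, had 5 and 8 positions in the HEK293T Terminator tables and at most 1 in any other table. DKC1 itself was sparsely covered: over its 2 and 3 positions listed with the HCT116 Terminator libraries the CMC- median was 12 and 14 covering reads, and over its 2 and 1 positions listed with the knockdown libraries it was 5.5 and 2. No DKC1 position was listed in all 4 of these tables, so the knockdown was not tested.

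The share of histone positions that were replication-dependent differed between the lines. In HEK293T the 4 tables listed 115 and 388 replication-dependent positions in the CMC+ replicates and 273 and 456 in the Terminator replicates. These were 32.7% and 48.6%, then 46.7% and 54.9%, of the histone positions of each table. In HCT116 the CMC+ tables listed 20 and 2, or 9.3% and 0.99%, and those with Terminator listed 42 and 27, or 27.5% and 22.3%. The HCT116-shDKC1 Terminator tables listed 37 and 24, or 27.8% and 16.3%. Every HEK293T table thus had a larger replication-dependent share than any HCT116 or HCT116-shDKC1 table. Variant positions numbered 237 to 410 in the HEK293T tables, 195 and 200 in the HCT116 CMC+ tables, and fewer with Terminator in HCT116 (111 and 94) and HCT116-shDKC1 (96 and 123). Relative to table size, replication-dependent positions made up 7.31 to 19.5 of each 10000 listed positions in HEK293T and 0.178 to 3.7 in the other 6 tables. With 2 libraries a group, an exact two-sided permutation test cannot give a p below 0.333, so no test of these shares was made.

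**Figure D1:**
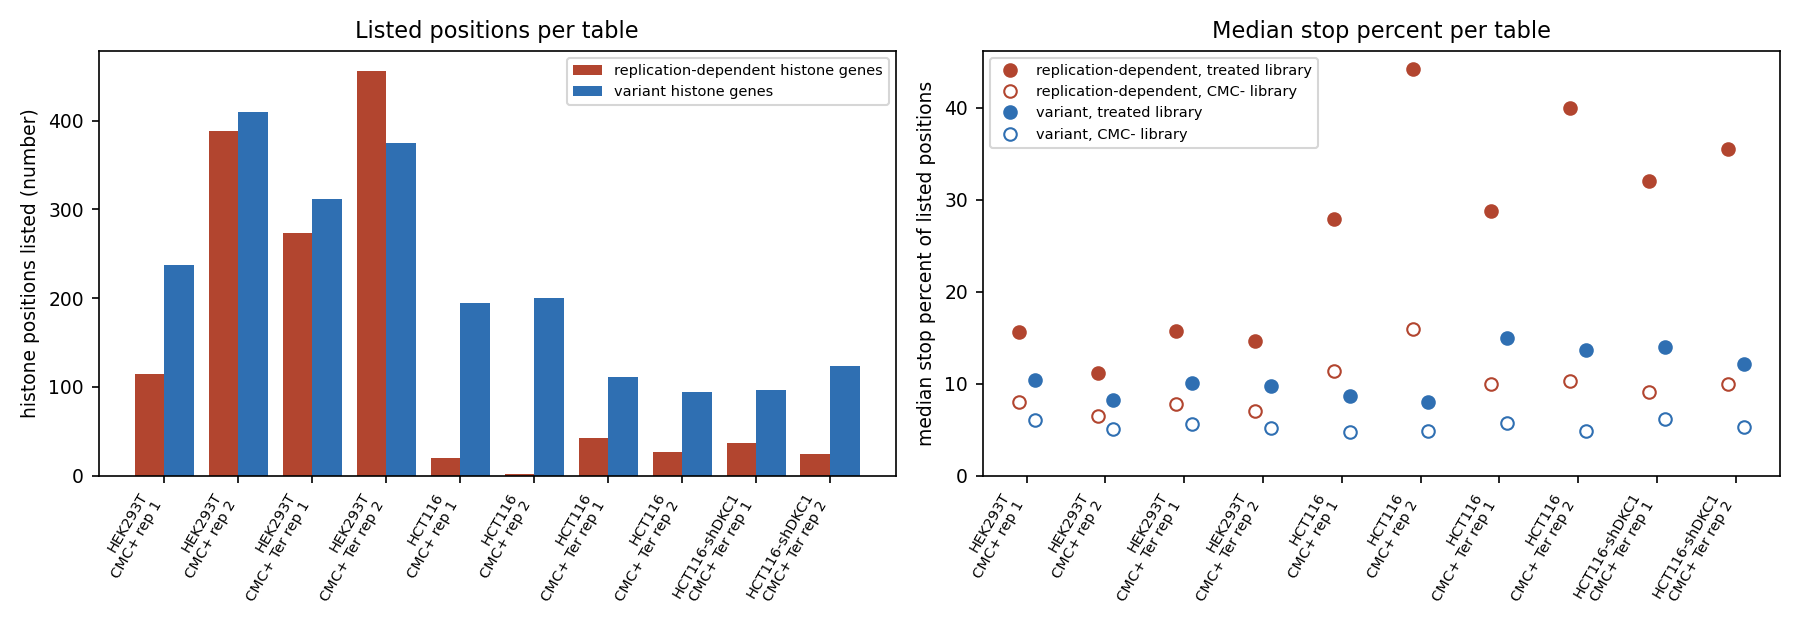
Number of histone positions listed in each of the 10 tables (y axis) by treated library (x axis), split into replication-dependent and variant histone genes (left), and the median stop percent of these positions in the treated library (filled) and its CMC- library (open, right). The HEK293T tables list 115 to 456 replication-dependent positions and the other 6 tables list 2 to 42.

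Most histone positions were seen once. Of the 2093, 1295 (61.9%) were listed in a single table, made up of 730 of the replication-dependent positions (72.7%) and 565 of the variant positions (51.9%). No position was listed in all 10 tables. The most widely listed replication-dependent sites, the shared one of HIST2H2AA3 and HIST2H2AA4 and HIST1H4C position 26103929, appeared in 6 tables, while 2 variant positions of H3F3B appeared in 9. The variant mRNAs were also the more deeply covered: the median treated covering reads per listed position ran from 11.5 to 52.5 over the 10 tables for replication-dependent genes and from 40.0 to 81.8 for variant genes, higher for the variants in every table. Because at least 5 stop reads are needed for listing, a site with few covering reads is listed only when its stop percent is high. The median treated stop percent was 11.1 to 44.2 for replication-dependent and 7.98 to 14.9 for variant positions, and the medians in the CMC- control were 6.46 to 15.9 and 4.77 to 6.12. The higher stop percents of the replication-dependent class thus went with lower coverage, and the part of coverage in them was not tested.

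Among the core histone families, H4 supplied 443 positions in 8 genes, H2B 162 in 14, H2A 147 in 12, H3 105 in 8 and the linker histone H1 147 in 3. HIST1H4C and HIST1H4E, which encode H4, led the replication-dependent genes with 113 and 111 positions, followed by the linker genes HIST1H1C and HIST1H1E with 73 and 72. In each of the 5 families most listings were of HEK293T. HIST1H4C had 40, 57, 33 and 35 positions in the HEK293T tables, 4 and 0 in the HCT116 CMC+ tables, and 1 to 3 with Terminator in HCT116 and its knockdown derivative. H1 genes had 0 and 0 positions in the HCT116 Terminator tables and 0 and 1 in those of HCT116-shDKC1. The other families were listed in all 4 of these tables: H2B with 24 and 2 positions in HCT116 and 12 and 10 in HCT116-shDKC1, H3 with 9 and 8, then 15 and 4, H2A with 7 and 10, then 6 and 6, and H4 with 2 and 7, then 4 and 3. In the variant class, H2AFZ had 335 positions, H3F3B 335, H2AFX 332 and H3F3A 87.

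Gene copies set a limit on the replication-dependent class. In 127 groups, 266 replication-dependent positions shared their whole deposited sequence window with a position of another histone gene, the largest group holding 7 genes, while no variant position did. HIST2H4A and HIST2H4B, HIST2H2AA3 and HIST2H2AA4, and HIST2H3A and HIST2H3C are near-identical pairs, with 52, 29 and 24 shared windows. The stop reads of such positions were equal in 66.7% to 100% of the groups, depending on the table, so the genes of a pair cannot be separated. Counts below include each copy, and the number of separate sets of reads is given with the Terminator calls. The 7 H2B genes HIST1H2BC, HIST1H2BD, HIST1H2BE, HIST1H2BJ, HIST1H2BK, HIST1H2BN and HIST1H2BO shared the window at coding base 257. There the HCT116 Terminator replicate 1 had 5 to 6 stop reads per gene of 21 to 25 covering reads, beside 1 of 26 to 31 in its CMC- library. The HCT116-shDKC1 Terminator libraries had 7 to 8 of 22 to 25 and 5 to 6 of 14 to 20, beside 3 to 4 of 43 to 53 and 4 of 37 to 44 in CMC-.

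The classes also differed in where their positions lay. Replication-dependent positions were in coding sequence in 883 cases (87.9%), in the 3′ UTR in 63 (6.27%) and in the 5′ UTR in 58 (5.78%). Variant positions were in coding sequence in 522 cases (47.9%), in the 3′ UTR in 370 (34.0%) and in the 5′ UTR in 193 (17.7%), and the remaining 4 were in no exon of a coding transcript. UTR lengths differ between the classes, so these shares describe where listed stops fell and give no rate per base.

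A stem-loop was found in the transcripts of 25 replication-dependent genes, which held 581 positions. Of these, 579 lay before the loop, the nearest 10 bases upstream, and 2 lay past it. Both of the latter were in HIST1H3H, an H3 gene, 392 and 396 bases downstream. The annotation ran at least 200 bases past the loop in 20 of the genes, counted along the genome to the furthest exon end with introns included. In these genes 2 of 478 positions (0.418%) were past the loop, which gives no rate per transcribed base. H2AFX, whose loop lies on chromosome 11 at 119094898 to 119094913, 53 bases after the coding sequence, gave another picture: 129 of its 332 positions were before the loop, 1 was within it and 202 (60.8%) were past it, by 16 to 955 bases. Most listed H2AFX stops were thus on mRNA that extended beyond the stem-loop, while those of the other stem-loop genes were nearly all upstream of it. Listed reads do not show how the replication-dependent molecules ended, and poly(A) tails were not measured.

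**Figure D2:**
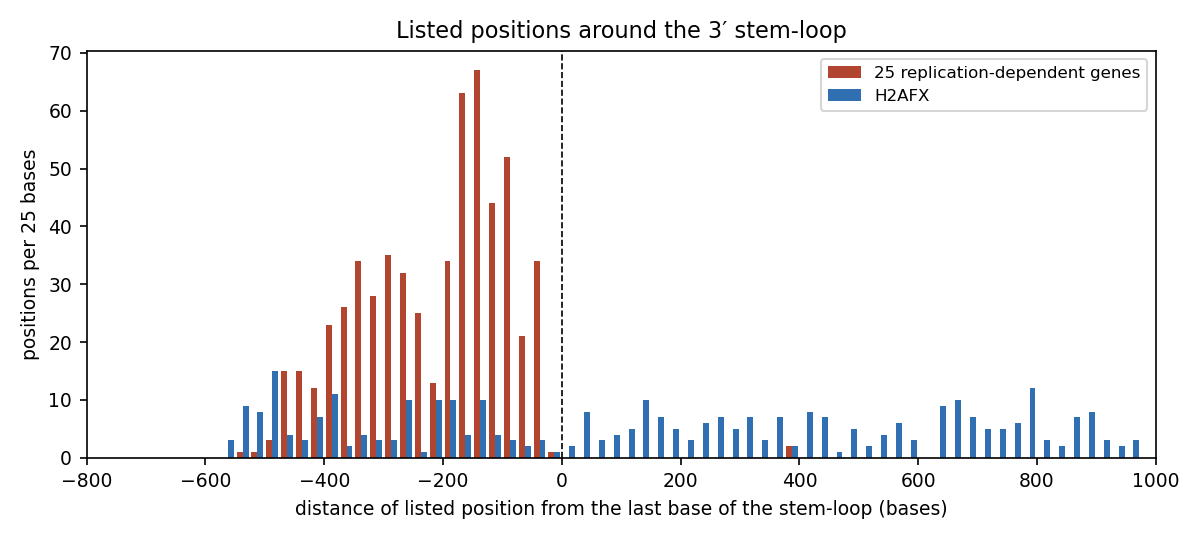
Number of listed positions per 25 bases (y axis) by distance from the last base of the stem-loop (x axis, bases, negative upstream, dashed line at the loop) in 25 replication-dependent genes and in H2AFX. The replication-dependent positions end upstream of the loop except for 2 of HIST1H3H, and H2AFX positions continue to 955 bases past it.

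Near the annotated start of transcription, stops were frequent with and without CMC. Within 5 bases of the RefSeq start there were 16 replication-dependent positions in 6 genes (1.59% of the class). In the 9 tables that listed any, their median stop percent was 40.0 to 85.7 in the treated and 25.9 to 80.0 in the CMC- library, compared with 11.0 to 31.8 and 6.26 to 11.2 for the class elsewhere in the same tables. Reverse transcription also ends where the template ends, with or without CMC, and its part in these stops was not tested. The median treated coverage at the sites was 7 to 32 reads. At HIST1H4C position 26103929, the base 4 upstream of the RefSeq start, all 6 of 6 and 13 of 13 covering reads of the HEK293T CMC+ libraries stopped, as did 8 of 8 and 10 of 11 of the CMC- reads. The same base had 12 of 12 and 11 of 12 stops in the HCT116-shDKC1 Terminator libraries beside 3 of 3 and 6 of 7 in CMC-. HIST1H4E showed the same at its RefSeq start, position 26204610, with 14 of 16 and 20 of 20 in HEK293T Terminator libraries and 5 of 6 and 5 of 5 in CMC-. The variant genes had 10 positions in this window, in 3 genes, with treated table medians of 3.35% to 39.8% and control medians of 1.6% to 38.3%.

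**Figure D3:**
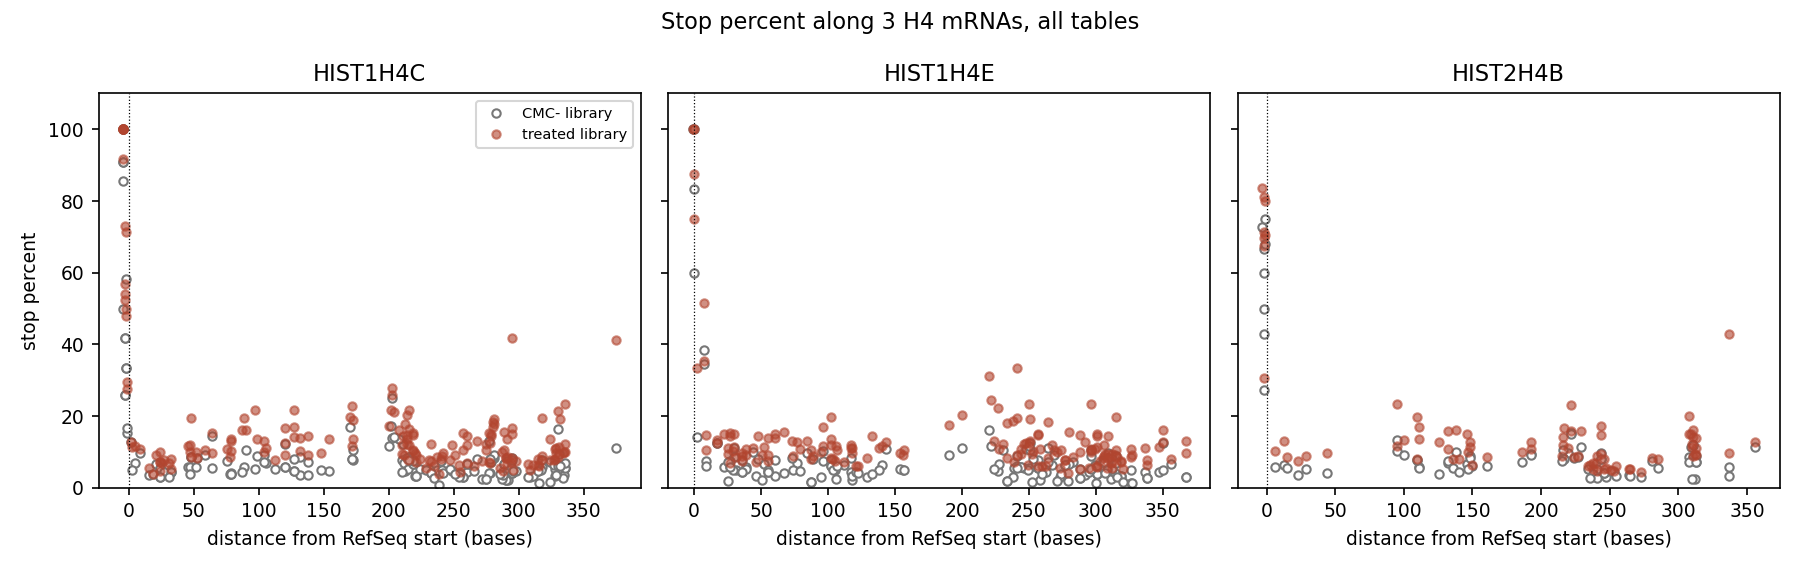
Stop percent (y axis) of listed positions in HIST1H4C, HIST1H4E and HIST2H4B by distance from the RefSeq start (x axis, bases, dotted line at the start) in all tables, filled points for the treated and open points for the CMC- library. Open and filled points are highest within 5 bases of the start, where some reach 100%, and are lower along the rest of each mRNA.

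CMC alone was tested in HEK293T on stop reads scaled to the library totals, with the replicate number as a block. Of 14824 positions tested, 0.465% were called higher, which required an adjusted p under 0.05 (edgeR's quasi-likelihood test, Benjamini-Hochberg over all positions) and a fold of at least 2. Of the 9 histone positions tested, 1 passed: HIST1H4C position 26103930, a uridine 3 bases upstream of the RefSeq start. It had 5 and 3.5 stop reads of 12 and 13.5 covering reads in CMC- (41.7% and 25.9%) and 13.5 and 15.8 of 18.5 and 27.8 in CMC+ (73.0% and 56.9%). The site thus met the minimum for testing, 10 stop reads in 2 libraries, through treated libraries alone. The groups did not overlap, and stop reads rose by a log2 change of 1.79 ± 0.23 (SE, adjusted p = 0.0488). The HIST1H4C call was lost under each of the 11 alternatives run, with log2 changes of 0.88 to 1.96 and adjusted p from 0.0662 to 1.0. These included leaving out either CMC- or either CMC+ library. Against coverage no histone position was called, beside 1.41% of all positions, and in fits of the CMC+ tables alone none was called on stop reads or against coverage, beside 0.261% and 0.795%. The other 8 positions, 6 of them in H2AFZ and 1 each in H3F3B and H2AFX, had log2 changes of 0.34 (H2AFZ position 99949370) to 0.78 (H2AFZ position 99950183), none of them called. The 9 histone positions had a median log2 change of 0.54, beside 0.14 for all positions tested.

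In HCT116 the CMC comparison had 7 testable histone positions, all of them in variant genes, and none was called by edgeR, none had an unadjusted p under 0.05, and DESeq2 called none. The background was 0.155% called higher and 0.0871% lower. The log2 changes ran from -0.16 ± 0.11 at H3F3A position 226062724 to 0.67 ± 0.18 at H2AFZ position 99950233, and at H2AFZ position 99949348 the change was 0.15 ± 0.15. No replication-dependent position was listed in both HCT116 CMC+ tables, so the class could not be tested there.

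The comparison of HEK293T Terminator with CMC- libraries called far more positions throughout, 33.4% of all tested being higher and 0.0135% lower. Among the histones 4 of 9 were called higher, a share set by few positions: HIST1H4C position 26103930, H3F3B position 75779048, H2AFZ position 99950169 and H2AFX position 119094848. The histone median was 0.96, beside 0.82 for all positions tested. The HIST1H4C, H3F3B and H2AFX sites met the minimum for testing through treated libraries alone, in H2AFX through the Terminator libraries only. With TMM scaling, which sets the overall change near 0, the calls over all positions went from 4957 higher and 2 lower to 291 higher and 166 lower, and 1 histone position was called. The histone count was 2 without Terminator replicate 1. The HIST1H4C site had 21.5 and 26.8 stop reads in the Terminator libraries, above the 5 and 3.5 of CMC-, and rose by 2.52 ± 0.2 (adjusted p = 1.73e-05). Its covering reads rose as well, to 39.8 and 51.3, so that the stop percent was 54.1 and 52.3, no higher than in CMC+. Tested against coverage, the log2 change of the HIST1H4C site was 0.61 ± 0.2 (adjusted p = 0.365, and 0.37 in the fit of the comparison's own tables), and it was not called.

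H3F3B position 75779048, coding base 127 next to the end of its exon, behaved otherwise. Its stop reads were 7 and 9 in CMC-, 7 and 15 in CMC+ and 21 and 27 in the Terminator libraries, on a coverage of 104 to 123. The stop percent was thus 6.19 and 7.32, then 6.73 and 13.0, then 17.5 and 22.7, with the Terminator libraries above all others. The rise of this H3F3B site over CMC- was 1.66 ± 0.18 (adjusted p = 0.000132) in stop reads and 1.56 ± 0.18 (adjusted p = 0.00232) against coverage. It was also the single histone position of 9 called when the Terminator libraries were set against CMC+ (1.16 ± 0.17, adjusted p = 0.00527, beside 23.6% of all positions called higher and 0.121% lower), but this call was lost without either CMC+ library or without Terminator replicate 1. Against coverage no histone position was called there, beside 0.897%. The Terminator and CMC+ comparisons share their CMC- libraries.

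At the H2AFZ start codon, position 99950169, 20 of 109 and 12 of 93 reads stopped in the Terminator libraries (18.3% and 12.9%), beside 3 of 128 and 10 of 147 in CMC- (2.34% and 6.8%). The groups did not overlap, and stop reads rose by 1.39 ± 0.47 (adjusted p = 0.0372) and against coverage by 1.74 ± 0.4 (adjusted p = 0.0303). Leaving out CMC- replicate 1 or Terminator replicate 1 reduced the H2AFZ change to 0.55 or 0.45 and ended the call. The H2AFX site at 119094848, 50 bases past the stem-loop, had 24.5% and 25.1% stops with Terminator beside 16.7% and 8.76% in CMC- and rose by 1.38 ± 0.26 (adjusted p = 0.0127). Without CMC- replicate 2 the H2AFX change was 0.99 and was not called, and without either Terminator library the site could not be tested. The remaining 5 tested positions were all in H2AFZ, with changes from -0.05 ± 0.33 (position 99950183) to 0.96 ± 0.24 (position 99949289), and none was called. Against coverage, 12.3% of all positions and 2 of the 9 histone positions were called, both of them variant.

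When a fit used only the tables of the comparison, an alternative chosen after seeing the data, 35 histone positions could be tested in HEK293T and 17 were called, beside 33.8% of all positions. They comprised 5 of 7 replication-dependent and 12 of 28 variant positions, in which the HIST2H4A and HIST2H4B copies count as 2. An adenosine at coding base 281 of H4 was called in HIST1H4C and in the shared reads of HIST2H4A and HIST2H4B. HIST1H4C had 4 of 97.3 and 8 of 104 stops in CMC- (4.11% and 7.67%) and 14 of 83.5 and 17 of 112 with Terminator (16.8% and 15.1%), a log2 change of 1.44 ± 0.29 (adjusted p = 0.00668). HIST2H4A and HIST2H4B had 8.7% and 7.13% in CMC- and 20.2% and 14.9% with Terminator, a change of 1.58 ± 0.35 (adjusted p = 0.0181). Against coverage 7 histone positions were called, beside 10.7%, and these included the HIST1H4C coding site (1.39 ± 0.28, adjusted p = 0.0264) but not that of HIST2H4A and HIST2H4B (1.18 ± 0.31, adjusted p = 0.146). The HIST1H4E start site had a change of 1.83 ± 0.27 in stop reads (adjusted p = 0.000703) and of 0.03 against coverage (adjusted p = 0.952).

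In HCT116, 7 of 11 tested histone positions were called higher with Terminator than in CMC-, from 5 separate sets of reads, and none lower, beside 26.0% and 0.0803% of all positions. They comprised 3 of 3 replication-dependent positions (2 sets of reads) and 4 of 8 variant positions (3 sets), and the histone median was 1.53 beside 0.45 for all positions. All 3 replication-dependent positions had fewer than 10 stop reads in each CMC- library. They met the minimum for testing only through Terminator libraries, where they were high, so their share and the histone median were shaped by that selection. With TMM scaling the calls over all positions went from 6787 higher and 21 lower to 3196 and 1305, and 3 histone positions were called. The histone count was 3 of 10 without CMC- replicate 1, 3 of 7 without Terminator replicate 1 and 4 of 11 without Terminator replicate 2. HIST2H4B position 149861161, 2 bases upstream of the RefSeq start, had 4 and 2 stop reads in CMC- and 26 and 23 with Terminator, a log2 change of 3.3 ± 0.32 (adjusted p = 7.36e-06). The covering reads of this HIST2H4B site went from 6 and 4 to 32 and 33, so the stop percent moved from 66.7 and 50 to 81.2 and 69.7. Against coverage the change in HIST2H4B was 0.35 ± 0.37 (adjusted p = 0.592, and 0.617 in the fit of the comparison's own tables). The HIST2H2AA3 and HIST2H2AA4 site, 35 bases before the last base of the stem-loop, had 6 and 3 stops in CMC- (17.1% and 11.1%) and 13 and 9 with Terminator (29.5% and 24.3%). It rose by 1.57 ± 0.41 (adjusted p = 0.00908) and by 0.9 ± 0.4 against coverage (adjusted p = 0.141). Without CMC- replicate 1 or Terminator replicate 2 the HIST2H2AA3 call was lost, and without Terminator replicate 1 the site could not be tested.

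Of the HCT116 calls, 4 were also made against coverage, beside 24.8% of all positions, and these were in the H3.3 genes. Since the listing fixed the direction of that test, no position of any gene was called lower in it. H3F3A position 226064395, an adenosine at coding base 44, had 7 and 8 stop reads in HCT116 CMC- (6.03% and 5.8%) and 16 and 19 with Terminator (23.9% and 27.1%). The H3F3A site rose by 1.53 ± 0.32 in stop reads (adjusted p = 0.00157) and by 2.08 ± 0.28 against coverage (adjusted p = 4.56e-05). H3F3B position 75779049, a cytidine at coding base 126, had 7.56% and 5.0% in CMC- and 21.4% and 25.8% with Terminator. It rose by 1.49 ± 0.31 (adjusted p = 0.0017) and by 1.87 ± 0.3 against coverage (adjusted p = 0.000199). H3F3B position 75779047, the last base of the same exon, had 1.53% and 3.15% in CMC- and 10.1% and 7.5% with Terminator, with changes of 1.79 ± 0.52 (adjusted p = 0.0131) and 1.93 ± 0.44 (adjusted p = 0.0061). Position 75778964, the base before the next exon, carried identical reads in every library and is the same observation placed at both sides of the H3F3B intron. The H3F3A site and these shared H3F3B reads met the minimum for testing only through Terminator libraries, where they were high. The other variant sites tested were not called in HCT116: H2AFX position 119094035 changed by 1.21 ± 0.5, H3F3B position 75778962 by 1.41 ± 0.46 and H2AFZ position 99949348 by -0.55 ± 0.34. At each called site the stop percent of both Terminator libraries was above that of both CMC- libraries. The listing and the choice of called sites favour this order, so it is a description only. Single libraries still mattered: the H3F3A call was lost without Terminator replicate 2, that of 75779049 without CMC- replicate 2, and that of 75779047 without CMC- replicate 1. Position 75779047 could not be tested without Terminator replicate 1.

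In HCT116-shDKC1, 8 of 11 histone positions, from 6 separate sets of reads, were called higher and 1 lower, beside 24.3% and 0.176% of all positions. The histone median was 1.43 beside 0.39 for all positions. The selection through Terminator libraries named for HCT116 applies to these values as well. With TMM scaling the calls over all positions went from 6348 higher and 46 lower to 3069 and 1357, and 3 histone positions were called higher and 1 lower. The histone count was 4 without CMC- replicate 1 or Terminator replicate 1 and 5 without Terminator replicate 2. HIST2H4B position 149861161 rose by 3.3 ± 0.32 (adjusted p = 6.47e-06), from 3 and 3 stop reads to 25 and 27, while its stop percent went from 60 and 42.9 to 71.4 and 67.5. Against coverage that HIST2H4B change was 0.46 ± 0.36 (adjusted p = 0.485, and 0.524 in the fit of the comparison's own tables). HIST2H2AA3 and HIST2H2AA4 rose by 1.54 ± 0.41 (adjusted p = 0.0111), from 20.0% and 3.33% to 33.3% and 24.2%, and by 1.18 ± 0.4 against coverage (adjusted p = 0.0613). The HIST2H2AA3 call was lost without CMC- replicate 2 and without the replicate block (1.5, adjusted p = 0.0529), which left 1 of 3 replication-dependent positions called. Without Terminator replicate 1 the HIST2H2AA3 site could not be tested.

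Against coverage 6 histone positions were called in HCT116-shDKC1, all of them variant, beside 19.5% of all positions. Here too the listing fixed the direction, and no position of any gene was called lower against coverage. H3F3A position 226064395 went from 4.51% and 3.79% to 31.2% and 21.0%, by 1.8 ± 0.35 in stop reads (adjusted p = 0.000924) and 2.62 ± 0.3 against coverage (adjusted p = 1.56e-05). H2AFX position 119094035, 863 bases past the stem-loop, went from 5.88% and 16.7% to 44.8% and 35.5%, by 1.98 ± 0.46 (adjusted p = 0.0035) and 1.83 ± 0.41 against coverage (adjusted p = 0.00417). H3F3B position 75779047 went from 2.11% and 4.38% to 8.51% and 12.1%, by 1.43 ± 0.45 (adjusted p = 0.0212) and 1.65 ± 0.38 against coverage (adjusted p = 0.00792). H3F3B position 75778962, coding base 130, went from 2.8% and 5.0% to 10.4% and 10.7%, by 1.33 ± 0.35 (adjusted p = 0.0194) and 1.4 ± 0.32 against coverage (adjusted p = 0.0152). H3F3B position 75779049 changed by 0.95 ± 0.32 in stop reads (adjusted p = 0.0611) and was called against coverage alone (1.54 ± 0.31, adjusted p = 0.00185). The H2AFX and H3F3B stop-read calls were lost without CMC- replicate 1, and that of H3F3A without Terminator replicate 1. H3F3B positions 75779047 and 75778962 could not be tested without Terminator replicate 2, nor 75778962 without Terminator replicate 1. H2AFZ position 99949348 was the only tested histone site called lower there, with 19 and 9 stop reads in CMC- and 5 and 5 with Terminator, a change of -1.2 ± 0.33 (adjusted p = 0.0376). Its covering reads fell alongside, from 150 and 143 to 37 and 66, and against coverage the H2AFZ change was 0.14 (adjusted p = 0.807). The stop-read call of this H2AFZ site was lost without CMC- replicate 2, without either Terminator library (log2 changes of -0.79 to -1.52) and without the replicate block (-1.23, adjusted p = 0.0524), and it could not be tested without CMC- replicate 1.

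The response to Terminator was not found to differ between HCT116-shDKC1 and HCT116 at any histone site. The interaction called 0 of 11 positions with edgeR, none had an unadjusted p under 0.05, and DESeq2 called none. The difference of the log2 changes, HCT116-shDKC1 minus HCT116, was 0.27 ± 0.49 for H3F3A, 0.77 ± 0.73 for H2AFX position 119094035, -0.54 ± 0.46 for H3F3B position 75779049 and -0.65 ± 0.49 for H2AFZ (edgeR, adjusted p = 1.0 for each). With standard errors of 0.41 to 0.73, these fits do not show that the responses were equal.

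**Figure D4:**
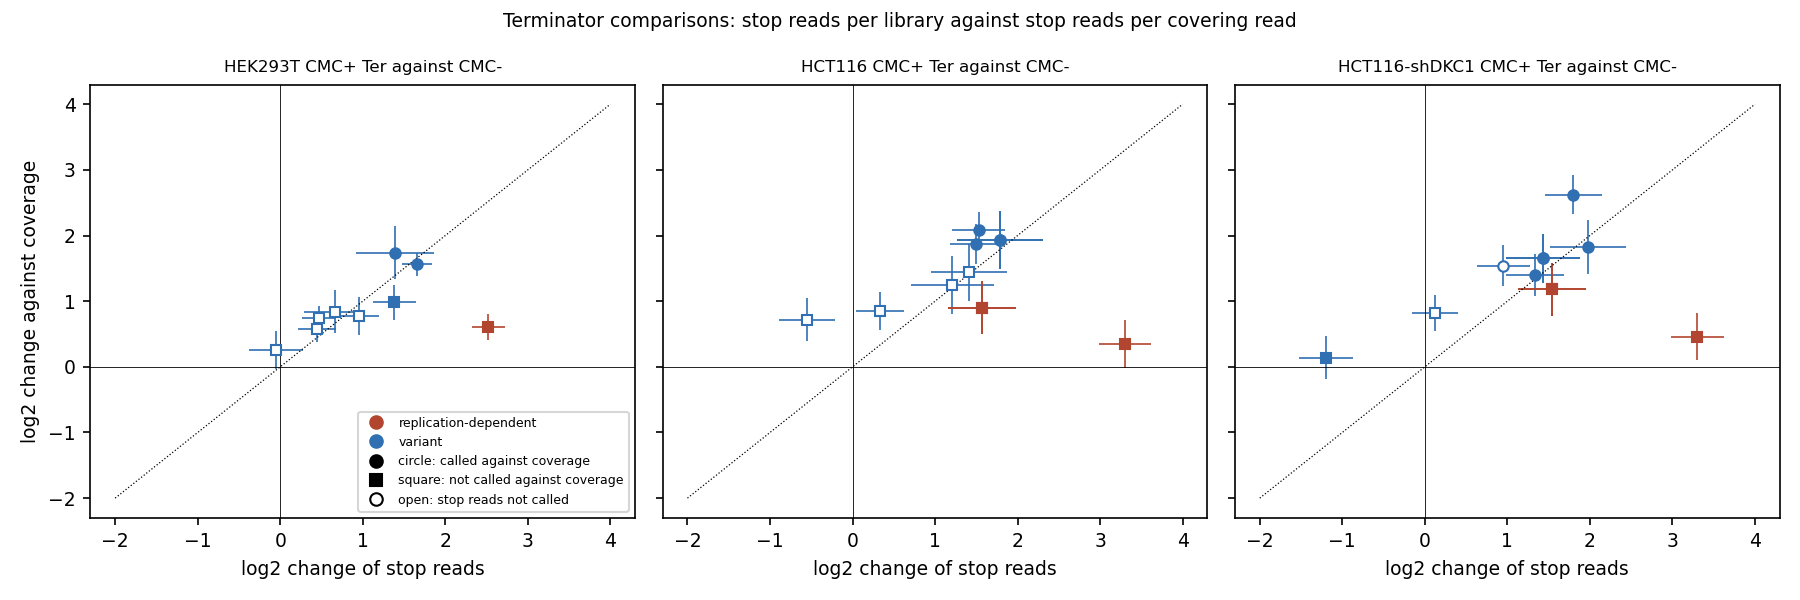
Log2 change of stop reads (x axis) and of stop reads per covering read (y axis) at the tested histone positions in the Terminator comparisons, coloured by class, with bars of 1 SE, circles for positions called against coverage, squares for those not, open symbols where stop reads were not called, and a dotted line of equal change. HIST2H4B lies at 3.3 on the x axis and at 0.35 and 0.46 on the y axis, while the sites of H3F3A and H3F3B called on both measures lie at 1.4 to 2.62 on the y axis.

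**Figure D5:**
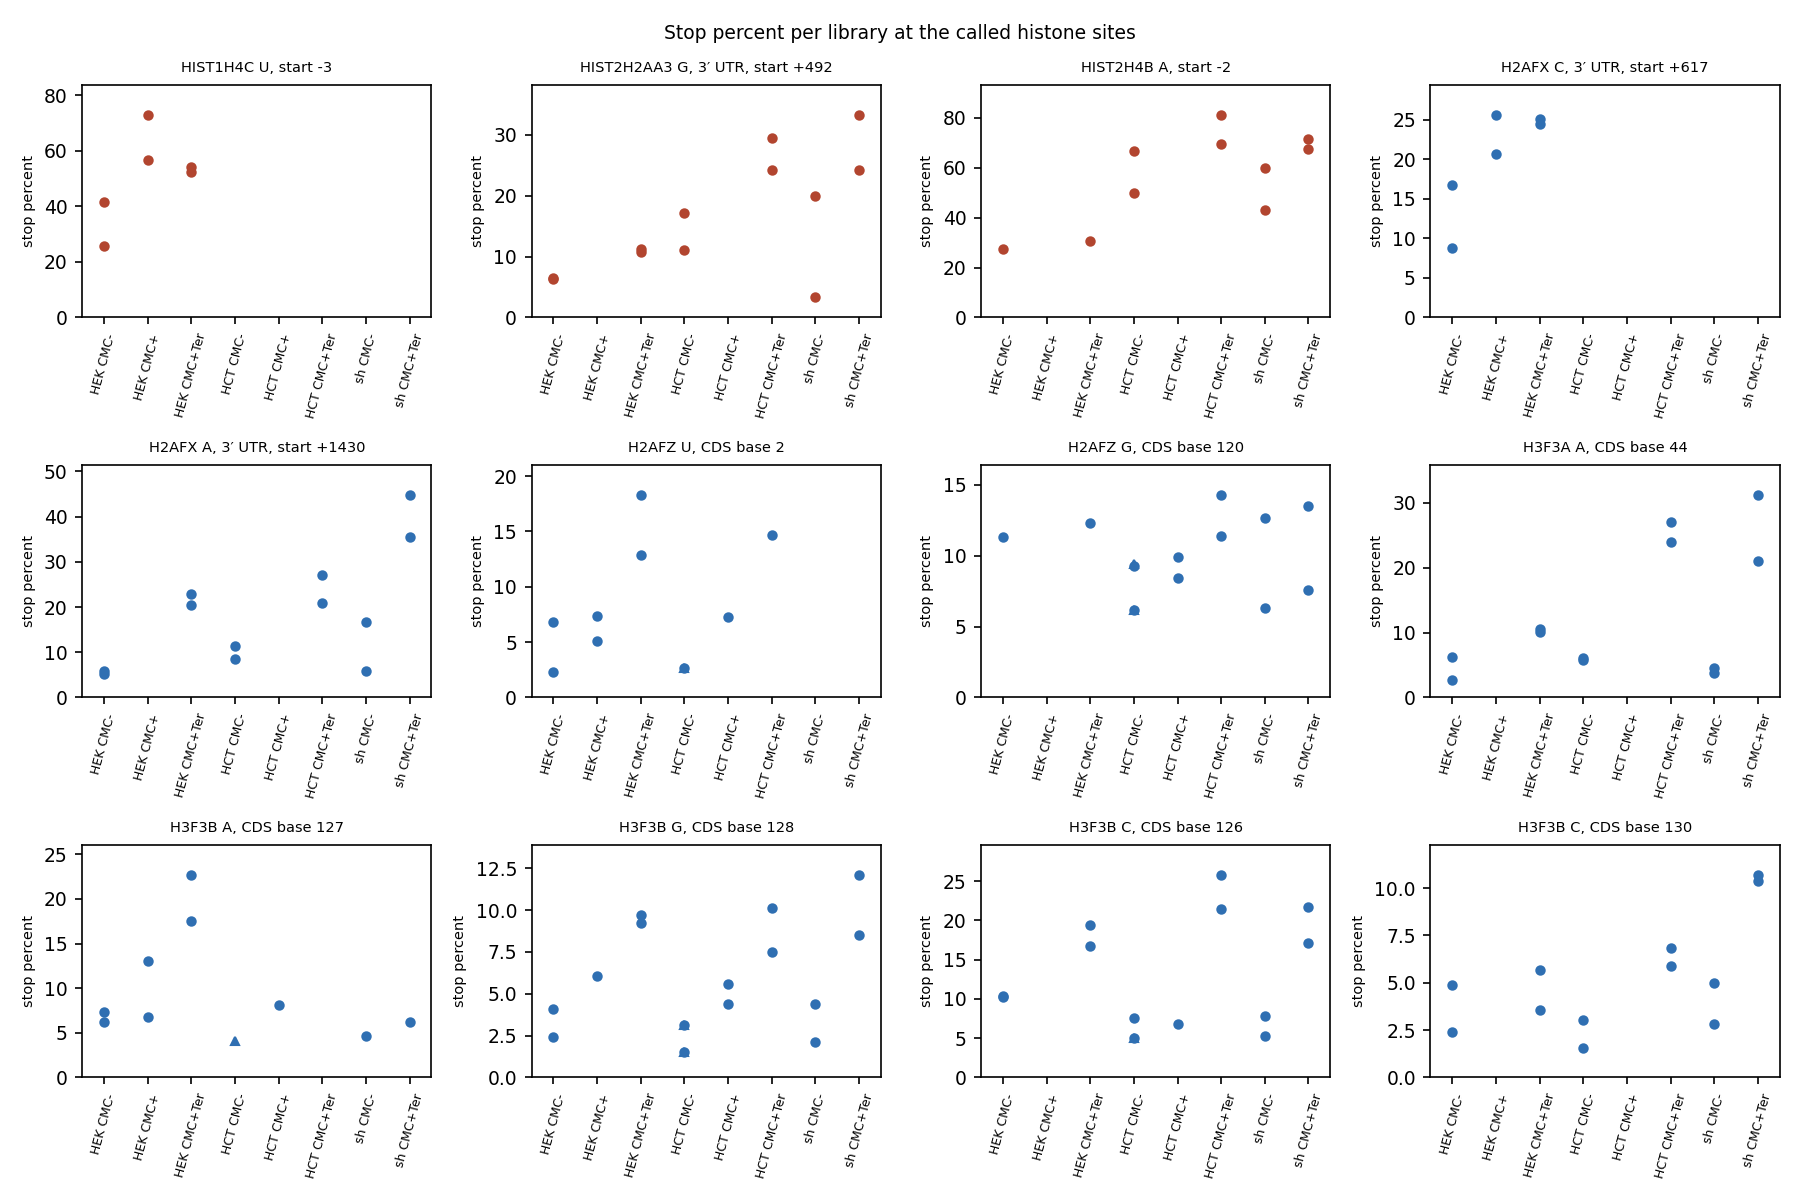
Stop percent per library (y axis) at the called histone positions in the 8 groups (x axis), 1 point per replicate that listed the site (HCT, HCT116; sh, HCT116-shDKC1; Ter, Terminator; red, replication-dependent; blue, variant), with triangles for HCT116 CMC- values listed beside the CMC+ libraries and sites with identical reads drawn once. At the H3F3A site both Terminator libraries are above both CMC- libraries of the same line, at 10.1% and 10.6% in HEK293T, 23.9% and 27.1% in HCT116 and 31.2% and 21.0% in HCT116-shDKC1.

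Summed covering reads per gene, scaled by TMM, were compared as a proxy of each mRNA's abundance, over positions listed in every table of the fit only. Without TMM, on library totals, the median gene changed with Terminator by 0.18 in HEK293T, -0.23 in HCT116 and -0.31 in HCT116-shDKC1, and the calls over all genes went from 318 higher and 310 lower to 484 and 111, from 629 and 532 to 419 and 841, and from 625 and 610 to 393 and 968. In bulk RNA, fewer expressing cells and less RNA per cell cannot be told apart. H2AFZ fell with Terminator in all 3 lines: by a log2 change of -0.38 ± 0.05 in HEK293T (adjusted p = 0.000192), -1.0 ± 0.2 in HCT116 (adjusted p = 5.43e-05) and -0.95 ± 0.2 in HCT116-shDKC1 (adjusted p = 6.53e-05). In HEK293T the H2AFZ coverage was 274.6 and 268.4 TMM-scaled CPM in CMC-, 272.7 and 281.7 in CMC+ and 209.5 and 207.9 with Terminator. With library totals in place of TMM the HEK293T change was -0.21 and was not called (adjusted p = 0.0852). In HCT116 and HCT116-shDKC1 the H2AFZ value rested on 1 position, with 151 and 130 covering reads in HCT116 CMC- and 49 and 44 with Terminator. Without Terminator replicate 1 the H2AFZ call in HCT116-shDKC1 was lost (-0.5).

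The 3 replication-dependent genes that could be tested, which hold 2 separate sets of reads, rose with Terminator in both HCT116 lines. HIST2H4B coverage rose by 3.27 ± 0.34 in HCT116 (adjusted p = 1.58e-11) and 3.17 ± 0.31 in HCT116-shDKC1 (adjusted p = 3.16e-12), again from the single position at its 5′ end. Most of its covering reads with Terminator were the stop reads already tested, so the rise largely repeats that call. Listing needs 5 stop reads in the treated library but 1 in the control, so a sparsely covered gene enters mainly when its treated reads are high. These rises therefore do not show a change in mRNA abundance. HIST2H2AA3 and HIST2H2AA4 rose by 0.97 ± 0.23 (adjusted p = 0.000362) and 0.66 ± 0.23 (adjusted p = 0.0131), and the HCT116-shDKC1 call was lost when any of its 4 libraries was left out. In these lines 4 of 7 genes were called in HCT116, beside 27.8% higher and 23.5% lower of all genes, and 5 of 7 in HCT116-shDKC1, beside 27.6% and 27.0%. In HEK293T 2 of 8 histone genes were called with Terminator, H2AFZ and H2AFX, beside 23.8% and 23.2%. None of the replication-dependent genes was called there: the changes were 0.16 ± 0.11 for HIST1H4C, -0.15 ± 0.13 for HIST1H4E, -0.28 ± 0.16 for HIST1H4H and 0.06 ± 0.18 for HIST1H1C. H2AFX rose by 0.3 ± 0.1 (adjusted p = 0.0297), a call lost without either CMC- library or Terminator replicate 1. H3F3A in HCT116-shDKC1 fell by 0.52 ± 0.18 on the log2 scale (adjusted p = 0.0148), a call lost without either CMC- library or Terminator replicate 2.

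CMC alone called 0 of 8 histone genes by coverage in HEK293T with edgeR, where 2 had an unadjusted p under 0.05, and DESeq2 called 0; the background was 0.075% of genes lower. In CMC- libraries, HCT116-shDKC1 against HCT116 called 0 of 6 histone genes, with changes of -0.01 for H2AFZ, 0.09 for H3F3B and -0.38 for H2AFX, beside 0.139% of genes higher and 0.556% lower.

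Of 26 genes for histone mRNA processing and histone chaperones, 7 could be tested in HEK293T and 3 in the HCT116 lines. CMC alone and the knockdown called none. With Terminator in HEK293T, ANP32E, a chaperone that removes H2A.Z, was higher (1 of 7, beside 23.8% of all genes), and NAP1L1 and SSRP1, which act as histone chaperones, and RBBP7, a histone-binding subunit of chromatin complexes, were lower (3 of 7, beside 23.2%). Of the 9 alternatives run, 3 kept the ANP32E call, 3 that of RBBP7 and 4 that of SSRP1. SLBP changed by 0.2 ± 0.19 (adjusted p = 0.439) and was not called. NAP1L1, 1 of 3 genes tested, was called higher in HCT116 (0.89 ± 0.15, adjusted p = 1.86e-06) and HCT116-shDKC1 (0.77 ± 0.14, adjusted p = 8.8e-06), against a change of -0.43 in HEK293T that turned to 0.8 when 1 position per gene was used. Of 7 further variant genes, H1F0 was higher with Terminator in HEK293T, where 2 could be tested. Of 4 tested in the HCT116 lines, H1FX, H2AFV and H2AFY were higher in HCT116, beside 27.8% of all genes, and H1F0, H2AFV and H2AFY in HCT116-shDKC1, beside 27.6%. Of these calls, that of H2AFV in HCT116-shDKC1 was kept under all 9 alternatives run, that of H1F0 in HEK293T under 8, and the others under 3 to 5.

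Over the positions listed in every table of a set, the means of the replication-dependent medians were above those of the variants in the 7 groups where both classes could be compared. HCT116 CMC+ held no such replication-dependent position, and in HCT116-shDKC1 CMC- replicate 2 the order was the opposite (3.33% against 7.08%). In HEK293T the 7 replication-dependent positions had a median stop percent of 7.0 ± 1.19 in CMC-, 11.3 ± 4.44 in CMC+ and 13.8 ± 2.4 with Terminator (SD, n = 2), and the 24 variant positions 5.09 ± 0.719, 7.9 ± 0.336 and 8.75 ± 0.00711. In HCT116 the 3 replication-dependent positions went from 14.1 ± 4.27 to 26.9 ± 3.69 and in HCT116-shDKC1 from 11.7 ± 11.8 to 28.8 ± 6.43. The 10 variant positions went from 6.04 ± 1.68 to 19.9 ± 2.82 and from 6.29 ± 1.13 to 17.1 ± 2.14. Listing fixes that treated values are no lower than control values, so the rise is not a result. The spread between replicates of the replication-dependent class was as large as 11.8 points. The 3 positions are the HIST2H2AA3 and HIST2H2AA4 copies and the HIST2H4B site near the RefSeq start. Their median is therefore the value of the shared HIST2H2AA3 and HIST2H2AA4 reads, and the replication-dependent medians in HCT116 and HCT116-shDKC1 describe 1 site.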

How the data were processed

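The tables hold stop and readthrough reads per position for a treated and a CMC- library. The submitters' processing notes name cutadapt 2.8, STAR and the build hg38; the STAR version is not given in the sources used here. Per the file contents, the positions came from rtsSeeker, whose filters are not stated. For the Terminator libraries of HCT116 and its knockdown derivative the authors deposited whole counts. In the HEK293T and HCT116 CMC+ tables the deposited values are expected counts that need not be whole, which were rounded for the tests. The authors also deposited RPM values of the stop reads, from which the library totals were recovered and which set the depth behind each value. The control columns of the HCT116 CMC+ tables could not be tied to 1 CMC- library, so column sums were used there, and 162 per-sample columns were not used.

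Stop reads were tested with edgeR 4.0.16 (R 4.3.3), with DESeq2 1.42.0 as an alternative. A position entered a fit if each table of that fit listed it and 2 or more libraries had 10 or more stop reads there. Sites with few control stop reads could meet this only through treated libraries, which favours calls in the higher direction. Calls needed an adjusted p under 0.05 and, for positions, a fold of at least 2. Each replicate number pairs a CMC- and a CMC+ library in the series' design, and same-numbered libraries of a line deviated together (r of 0.221 to 0.412). The number was therefore fitted as a block, except in the knockdown comparison of CMC- libraries. In the Terminator fits of HCT116 and HCT116-shDKC1, with the interaction, 1 block spanned both lines, though no label pairs their libraries (r of 0.135 to 0.345 between the lines). Against coverage, covering reads served as the offset. Gene coverage summed covering reads with TMM scaling. On simulated data the fits recovered 92.5%, 96.0% and 91.0% of 200 positions changed 4-fold, in HEK293T Terminator, HCT116 Terminator and HCT116 CMC+ respectively. False calls numbered 9, 5 and 0. The simulation gave all positions the same dispersion and left out replicate effects and the listing. It therefore does not give the recovery at sparsely read histone sites. The text names every called position, up to 12 per class, then the 4 of each class with most stop reads, and every tested histone gene. Regions come from GENCODE 29 and starts from RefSeq (GRCh38.p14); 2080 of 2093 positions (99.4%) matched a transcript. Members and lists were chosen with earlier results of these data known.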

Additional observations from a re-analysis of the deposited data

How the results depend on the processing

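Histone positions called went from 1 to 0 for HEK293T CMC+ against CMC- without the replicate block, with TMM scaling, no minimum of stop reads, coverage or DESeq2, and in fits of the comparison's own tables, on stop reads or against coverage, which were chosen after seeing the data. For HEK293T Terminator against CMC- the count of 4 became 1 with TMM scaling, 2 against coverage, 0 with DESeq2, 17 with the comparison's own tables and 7 with those against coverage. Against CMC+ the count of 1 became 0 against coverage and 0 with DESeq2, and with TMM scaling another site was called, as lower. For HCT116 Terminator the count of 7 became 3 with TMM scaling, 4 against coverage, 0 with DESeq2 and 2 with its own tables against coverage, and for HCT116-shDKC1 the count of 9 became 4, 6, 0 and 5. DESeq2, like TMM scaling, centres the overall change near 0. The H2AFZ site called lower in HCT116-shDKC1 (-1.2) was at 0.14 against coverage. Leaving out 1 library at a time gave counts of 0 to 0, 2 to 3, 0 to 2, 3 to 6 and 4 to 7 in the same order, and 0 to 0 for HCT116 CMC+ and for the interaction.

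By coverage, the 2 genes called in HEK293T became 1 without the replicate block and 1 with DESeq2, and the 5 in HCT116-shDKC1 became 2 and 2. Without 1 library the counts were 1 to 2 in HEK293T, 4 to 4 in HCT116, 2 to 2 in HCT116-shDKC1, and 0 to 0 for HEK293T CMC+ and the knockdown. Without the block, the replication-dependent positions called in HCT116-shDKC1 fell from 3 to 1, and the calls over all positions for HEK293T CMC+ from 69 to 2. With it, the calls over all genes in the knockdown went from 3 higher and 12 lower to 37 and 122, still with no histone gene. With 1 position per distinct window, the replication-dependent medians became 36.2% in HCT116 CMC-, 51.2% with Terminator, and 31.5% and 49.1% in HCT116-shDKC1. From summed reads they were 17.2% in HEK293T Terminator, 40.8% in HCT116 Terminator and 42.6% in HCT116-shDKC1 Terminator, and the variant values were 8.73% and 15.4% in HEK293T and HCT116 Terminator. In the HCT116 tables without Terminator, the variant medians ran from 4.78% to 8.28% over both groups and all settings. Of the 75 leave-one-library-out values for called positions, 28 were no longer called. Where a called position fell below the minimum for testing, the fit gave no value and is not among the 75. A position with few covering reads could be listed only at a high stop percent.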
